A study of Mus musculus with 6 samples.

Results

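The nuclear-encoded respiratory chain genes described here are 101 of the 54309 genes in the deposited table. They were picked by name: Nduf genes of complex I, the 4 Sdh genes of complex II, Uqcr genes and Cyc1 of complex III, Cox4 to Cox8 genes of complex IV and Atp5 genes of complex V. Gene names marked as pseudogenes with "-ps" were left out (14 names). The tissue was lumbar dorsal root ganglia (levels 4 to 6), which hold the cell bodies of sensory neurons, from male C57bl/6 mice aged 8 to 10 weeks. Adeno-associated virus carrying GFP alone (AAV-GFP) or leptin with GFP (AAV-Leptin-GFP) was injected into the sciatic nerves of both sides 4 weeks before the axons of the dorsal columns were cut, and ganglia were taken 24 hours after the cut. Ganglia were dissociated with enzymes and neurons enriched on an albumin gradient before poly(A) RNA was sequenced, with 3 libraries in each group. Both groups therefore share the virus, GFP, the cut and the dissociation, and differ in the leptin insert. The sources used here do not name the promoter that drives the insert. The labels do not say whether a library is 1 animal or a pool, so the p-values speak only for the spread among these 6 libraries, which may be technical.

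The respiratory chain sits in the inner mitochondrial membrane. Complexes I and II pass electrons from NADH and succinate to ubiquinone, complex III passes them on to cytochrome c, complex IV hands them to oxygen, and complex V (ATP synthase) uses the resulting proton gradient to make ATP. Most subunits are encoded in the nucleus and imported, a small set is encoded in mitochondrial DNA, and complex II has nuclear subunits only. Core subunits carry out the reaction, accessory subunits surround and stabilise the core, and assembly factors help to build a complex without staying in it. Sensory neurons, whose axons are long, rely heavily on mitochondrial ATP.

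The promoters of 3 complex III and IV genes with unlike levels are shown (means of 1050 TPM for Cox6a1, 435 TPM for Uqcr11 and 11.8 TPM for Cox7a1). Between the virus groups, Cox6a1 had the smallest p of complex IV and Uqcr11 that of complex III. Cox7a1 had the most negative fold change of the tested genes. Cox6a1 encodes the ubiquitous form of a complex IV subunit, Uqcr11 a small subunit of complex III, and Cox7a1 the heart and skeletal muscle form of another complex IV subunit. Each line gives the 250 bases before the RefSeq start of the gene, read 5' to 3' on the gene's own strand (RefSeq, GRCm38.p6), with exact matches to the searched letters in capitals. The windows are chr5:115348959-115349208, minus strand, for Cox6a1, chr10:80406822-80407071, minus strand, for Uqcr11, and chr7:30183921-30184170, plus strand, for Cox7a1.
Cox6a1: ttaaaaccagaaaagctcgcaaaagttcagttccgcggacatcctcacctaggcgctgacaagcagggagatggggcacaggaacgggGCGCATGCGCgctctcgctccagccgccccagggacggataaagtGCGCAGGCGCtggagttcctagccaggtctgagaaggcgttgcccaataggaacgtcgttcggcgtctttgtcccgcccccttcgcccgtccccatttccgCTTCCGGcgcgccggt
Uqcr11: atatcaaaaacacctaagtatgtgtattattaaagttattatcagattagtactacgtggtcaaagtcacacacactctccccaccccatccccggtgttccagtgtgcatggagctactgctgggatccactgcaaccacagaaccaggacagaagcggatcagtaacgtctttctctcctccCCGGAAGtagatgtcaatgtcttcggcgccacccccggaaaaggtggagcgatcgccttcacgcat
Cox7a1: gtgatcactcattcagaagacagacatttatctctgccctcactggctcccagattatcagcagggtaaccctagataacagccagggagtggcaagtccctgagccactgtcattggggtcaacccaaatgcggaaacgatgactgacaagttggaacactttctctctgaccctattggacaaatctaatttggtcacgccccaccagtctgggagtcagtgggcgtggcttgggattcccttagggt
The capitals mark GCGCA and GCGC with any 1 base between them, the letters bound by the factor NRF1, and CCGGAAG, the letters bound by ETS factors such as GABP (CTTCCGG when read on the other strand). Both factors are textbook regulators of respiratory chain genes. Cox6a1 held 2 NRF1 matches and 1 ETS match, Uqcr11 held 1 ETS match, and Cox7a1 held neither. The order of these 3 genes does not hold for all the others. Ndufa4 and Atp5b, with the highest levels of complexes IV and V, held neither match in the same window. Atp5g2 and Ndufaf4, with far lower levels, each held an NRF1 match. Whether matches follow level was not tested.

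Over the 300 bases from 250 before to 50 after the start, 77 of the 101 genes had a promoter in the RefSeq table, which holds 27025 genes. The NRF1 letters occurred in 19 of the 77 (24.7%) against 5.19% of all promoters, and the ETS letters in 19 (24.7%) against 9.93%. The letters AAGATGGC, bound by the factor YY1, occurred in 11 (14.3%) against 3.19%, and TATAAA in 8 (10.4%) against 15.7%. All letters were searched on both strands, and 42 of the 77 promoters (54.5%) held at least 1 of the NRF1, ETS and YY1 letters, against 16.4% of all promoters. Among the tested genes, the median log2 difference between the virus groups was -0.13 for the 42 with such letters and -0.14 for the 33 without. A match is a match of letters and not evidence of binding.

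Levels differed more between genes than between groups. TPM, a share of the library corrected for transcript length and scaled to the same total in each library, allows levels to be compared between genes, and 91 of the 101 genes had a mean of at least 1 TPM over the 6 libraries and were tested. Of these, 78 had a mean of at least 100 TPM. Within complex I the highest subunit (Ndufb8, mean 471.6 TPM) lay 8.17 times above the lowest (Ndufb4, 57.7 TPM). The Ndufb4 level is uncertain, because its coding sequence is identical to the processed pseudogene Ndufb4c (367.7 TPM). The next lowest complex I subunit was Ndufa13 (105.8 TPM). The ratio of highest to lowest was 1.76 in complex II, 2.97 in complex III and 5.35 in complex IV when tissue-specific isoforms were left out. The ratio of 67.4 in complex V comes from Atp5b and Atp5g2, which encode the catalytic β subunit (mean 1413 TPM) and a low-level form of the c subunit. The 8 Nduf assembly factors had means of 21.2 to 59.7 TPM, below every tested complex I subunit other than Ndufb4. The uncertain Ndufb4 value of 57.7 TPM lay between Ndufaf7 at 56.6 and Ndufaf2 at 59.7 TPM. Of the 10 genes under the filter, Cox8b, Ndufa11b, Ndufs6b and a second identifier for Atp5o were listed at 0 in every library. The others were Ndufa4l2, Cox7b2, Cox6a2, Cox8c, Cox6c2 and Ndufb11b.

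**Figure D1:**
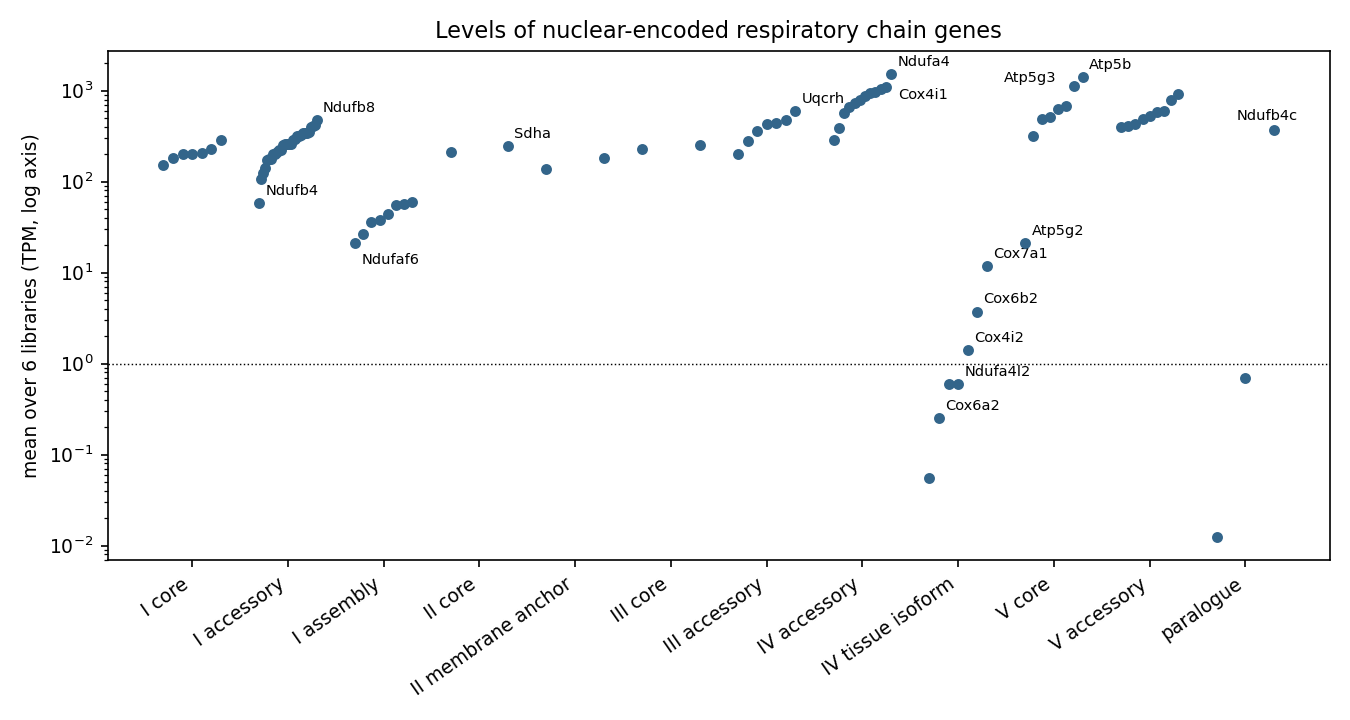
Mean TPM over the 6 libraries (log axis) of each gene above 0, by complex and role, 1 point per gene, with the dotted line at 1 TPM. Most subunits sit at 100 TPM or more, the complex I assembly factors between 21.2 and 59.7 TPM, and the complex IV tissue isoforms between 0.055 (Cox8c) and 11.8 TPM (Cox7a1).

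In the ganglia given leptin, transcripts of the nuclear-encoded chain lay below those of the AAV-GFP group in every complex. Of the 91 tested genes, 88 had a log2 fold change below 0 (96.7%, against 50.1% of all 15108 tested genes), with a median of -0.13 and a range from -0.34 (Cox7a1) to 0.08 (Ndufaf4). The median over all tested genes was -0.00016. Under quantile normalization 79 of the 91 lay below 0, against 60.1% of all tested genes, with a median of -0.066. The difference per gene was small, and 1 gene passed the test over all genes: Atp5mpl fell, which is 1 of 91 where 0.0662% of all tested genes (10 of 15108) were called lower. No respiratory chain gene was called higher, where 1.54% of all tested genes were (233 genes). The count of 233 depended on which libraries were included. It was 4 without AAV-GFP library 2, 4 without AAV-GFP library 3 and 453 without AAV-GFP library 1. It was 16 without AAV-Leptin-GFP library 1, 23 without AAV-Leptin-GFP library 2 and 180 without AAV-Leptin-GFP library 3. Leaving out a library also leaves fewer libraries for the test. The test was limma's moderated test on log2(TPM + 1) with Benjamini-Hochberg adjustment over all tested genes and a threshold of 0.05, and fold changes are on that scale. Before adjustment, 47 of the 91 (51.6%) were lower at p under 0.05, against 8.19% of all tested genes, and none was higher, against 11.3%. The count of 47 was 14 under quantile normalization, 24 without limma's trend, 26 with the mitochondrially encoded genes removed and 30 without AAV-Leptin-GFP library 2. In 49 of the 91 (53.8%) all 3 AAV-Leptin-GFP libraries lay below all 3 AAV-GFP libraries, against 11.9% of all tested genes, and in none did they all lie above, against 13.3%. The median standard error of a gene's log2 fold change was 0.055, so single differences of 0.1 to 0.2 are near the limit of what 3 against 3 libraries can separate. In bulk RNA such as this, fewer cells of a type and less RNA per cell cannot be told apart.

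Abundant genes as a whole were shifted the same way, and the respiratory chain genes are mostly abundant and short. Among all 1962 tested genes that averaged 100 TPM or more, 77.9% lay below 0 and the median was -0.08. Where the leading transcript (the one with the highest mean TPM) was under 1000 nt, 353 other genes of at least 100 TPM had a median of -0.13 and 88.1% lay below 0, and the 57 respiratory chain genes of that kind had a median of -0.15 and all lay below 0. At p under 0.05 before adjustment, 46.2% of those other genes were lower, against 59.6% of the respiratory chain genes. All AAV-Leptin-GFP libraries lay below all AAV-GFP libraries in 47.0% of those other genes, against 63.2% of the respiratory chain genes. Where the leading transcript was 1000 nt or longer, the medians were -0.06 for 1514 other genes, of which 74.6% lay below 0, and -0.11 for 21 respiratory chain genes, all below 0. Of these, 24.6% of the other genes and 52.4% of the respiratory chain genes were lower at p under 0.05 before adjustment. The groups did not overlap, with leptin lower, in 33.2% of these other genes and 52.4% of these respiratory chain genes. These are descriptions without a test of the difference. Spearman's rho between log2 fold change and leading transcript length was 0.378 over the 91 genes and 0.448 over 1945 genes of at least 100 TPM with a known length. These genes share the same 6 libraries. The part of transcript length and abundance in the difference between groups was not tested.

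**Figure D2:**
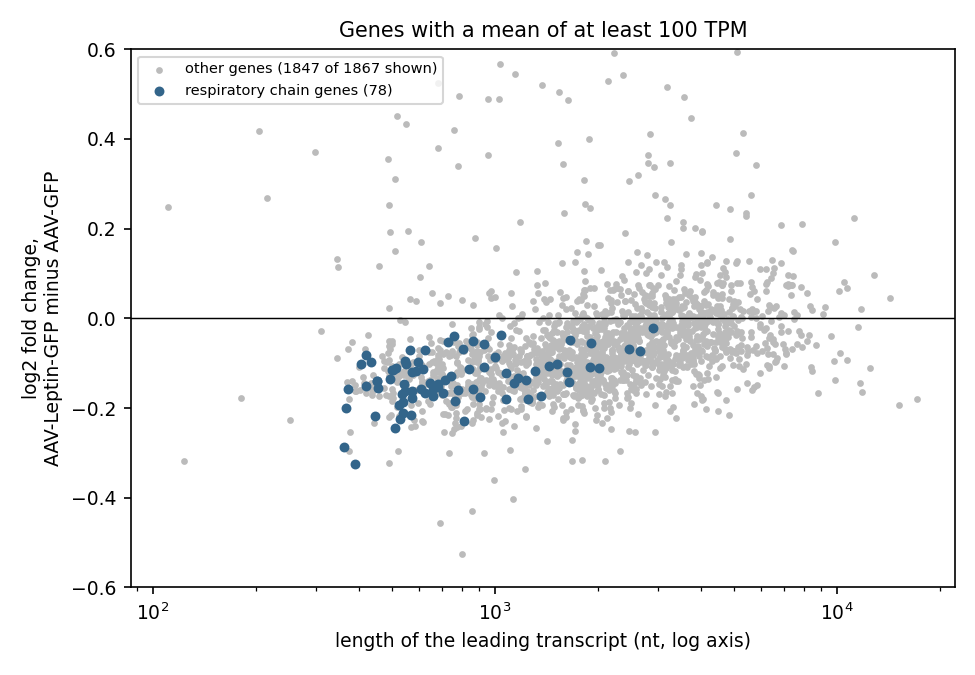
Log2 fold change (AAV-Leptin-GFP minus AAV-GFP) against the length of the leading transcript (nt, log axis) for genes that averaged 100 TPM or more, with 78 respiratory chain genes in blue and 1847 of 1867 other genes in grey (those within ±0.6). All 78 lie below 0, inside the band of other genes of their length.

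Libraries within a group also differed from each other across many of these genes at once. AAV-Leptin-GFP library 2 was the lowest of its group for 64 of the 91 genes, and AAV-GFP library 1 was the lowest of its group for 60. The median coefficient of variation over the 91 genes was 3.99% in AAV-GFP and 5.09% in AAV-Leptin-GFP. Without AAV-Leptin-GFP library 2 the median log2 fold change was -0.10, and without AAV-GFP library 1 it was -0.15. The 101 genes together took 3.50%, 3.64% and 3.68% of AAV-GFP libraries 1, 2 and 3 and 3.33%, 3.14% and 3.37% of AAV-Leptin-GFP libraries 1, 2 and 3.

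**Figure D3:**
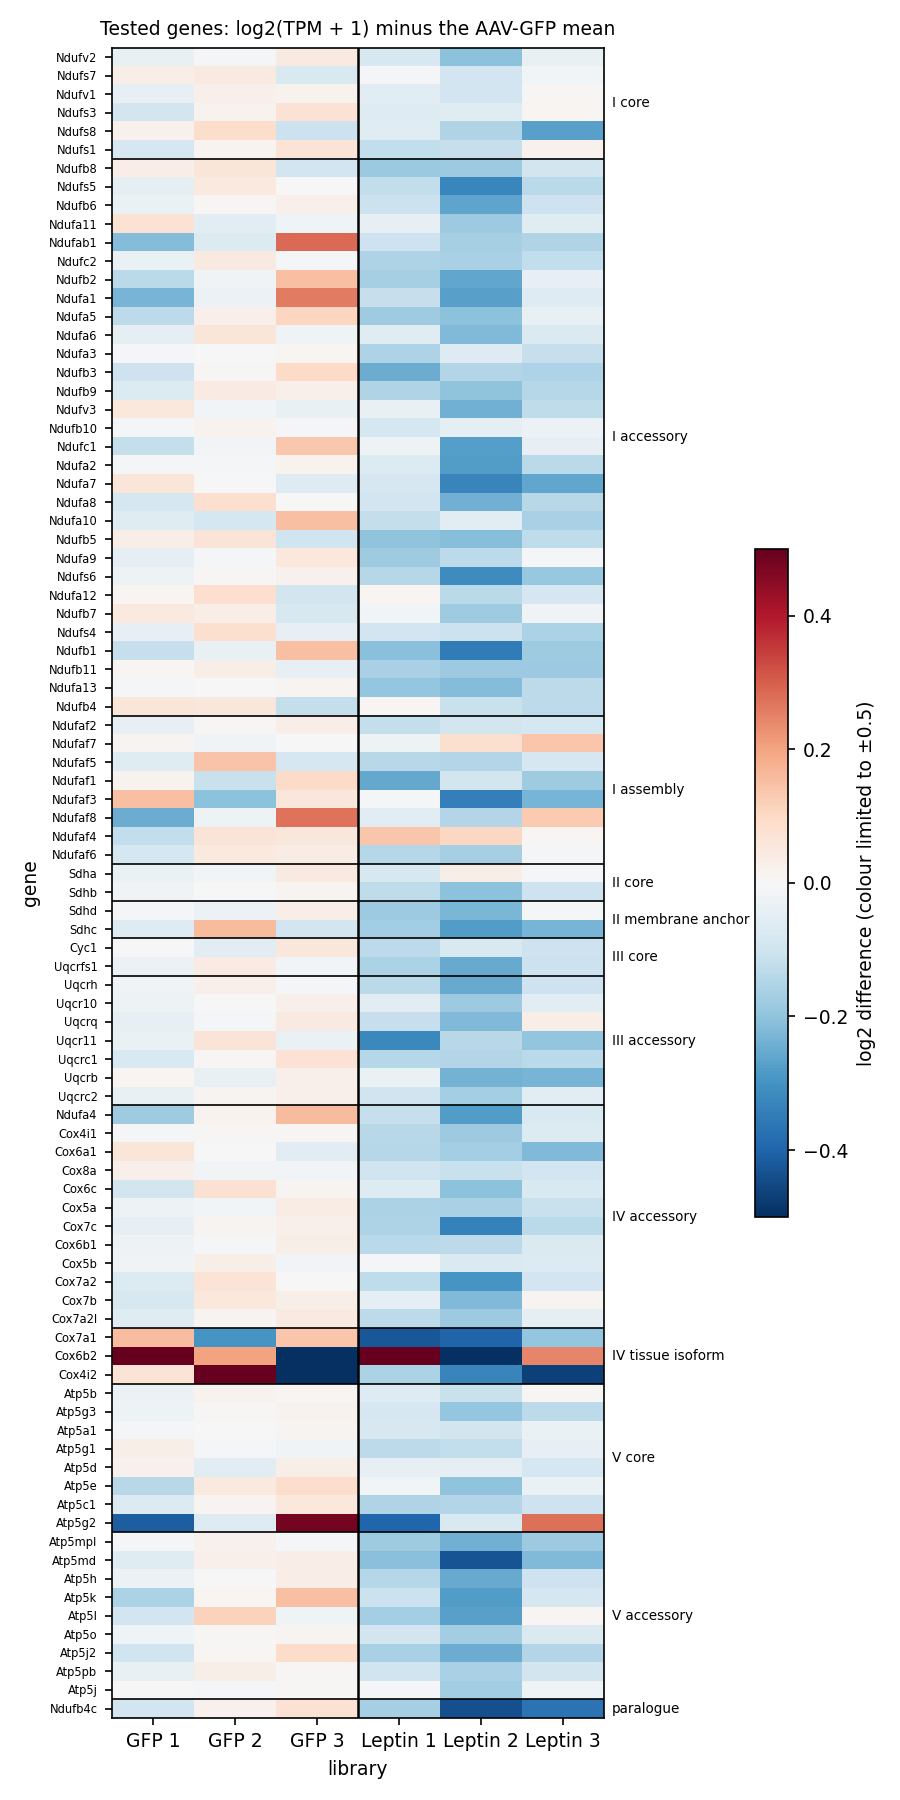
Log2(TPM + 1) of 90 of the 91 tested genes (rows, by complex and role) in each library (columns) minus the mean of the 3 AAV-GFP libraries, with blue for lower, red for higher and colours limited to ±0.5. The AAV-Leptin-GFP columns are mostly blue, most of all library 2, and the Cox6b2, Cox4i2 and Atp5g2 rows vary widely within both groups.

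Complex I, which takes electrons from NADH, was summed over its 37 subunits. The sum was 9520, 9908 and 10029.7 TPM in AAV-GFP libraries 1, 2 and 3 and 9074, 8572 and 9150.4 TPM in AAV-Leptin-GFP libraries 1, 2 and 3. The groups did not overlap, and the mean difference was -9.04% (9819 ± 266 against 8932 ± 314 TPM, SD, n = 3 each, exact two-sided permutation p = 0.1). With 3 against 3 libraries 0.1 is the smallest p this test can give. It was also the p for complexes II to V and for the ratio to mitochondrially encoded subunits below, and adjusted over these 6 comparisons it remained 0.1.

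The 7 core subunits of complex I, which hold the flavin and the iron-sulphur clusters, lay between -0.16 (Ndufs8) and -0.04 (Ndufs3), with a median of -0.07. The 30 accessory subunits lay between -0.25 (Ndufb1) and -0.05 (Ndufb10), with a median of -0.15. Of them, 17 were lower at an unadjusted p under 0.05, against 8.19% of all tested genes. The Ndufb1 entry is annotated in GENCODE M21 as a non-coding RNA from a bidirectional promoter, with 0% of its TPM in protein-coding transcripts.

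Ndufb11, an accessory subunit of the membrane arm, had the smallest p of complex I. It measured 133, 134 and 128 TPM in AAV-GFP libraries 1, 2 and 3 and 118, 116 and 116 TPM in AAV-Leptin-GFP libraries. All AAV-Leptin-GFP libraries lay below all AAV-GFP libraries, but the gene did not pass (-0.18, SE 0.04, adjusted p = 0.079). Ndufb8, a membrane arm subunit, had the highest level of complex I, at 508, 518 and 464 TPM in AAV-GFP and 436, 438 and 465 TPM in AAV-Leptin-GFP. The groups overlapped because AAV-GFP library 3 lay just below AAV-Leptin-GFP library 3 (-0.15, SE 0.05, adjusted p = 0.174). Ndufa13 (-0.18, adjusted p = 0.0841), Ndufs6 (-0.22, adjusted p = 0.0884) and Ndufc2 (-0.15, adjusted p = 0.0953) were the other complex I subunits with an adjusted p between 0.05 and 0.1.

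Assembly factors of complex I did not lie on 1 side. Of 8, 6 were below 0, from -0.19 (Ndufaf3) to -0.02 (Ndufaf8), and 2 above. Ndufaf4 measured 23.6, 27.0 and 26.9 TPM in AAV-GFP and 28.4, 27.8 and 26.0 TPM in AAV-Leptin-GFP. Its groups overlapped (0.08, SE 0.07, adjusted p = 0.585). Ndufaf7, a methyltransferase, measured 55.9, 54.6 and 55.4 TPM in AAV-GFP and 54.3, 58.5 and 61.0 TPM in AAV-Leptin-GFP. Its groups overlapped as well (0.07, SE 0.06, adjusted p = 0.574), and with protein-coding transcripts only the value was -0.064. The leading transcript of Ndufaf4 is annotated as a processed transcript without a coding sequence and held 66.0% of the gene's TPM.

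Complex II, which oxidises succinate and belongs to the citric acid cycle as well, summed to 794, 821 and 815 TPM in AAV-GFP libraries 1, 2 and 3 and to 738, 729.8 and 769 TPM in AAV-Leptin-GFP libraries. The groups did not overlap (809.95 ± 14.3 against 746 ± 20.7 TPM, a difference of -7.94%). Its 2 catalytic subunits had unlike values. Sdha, the flavoprotein subunit, measured 242, 245 and 256 TPM in AAV-GFP and 234, 252 and 246 TPM in AAV-Leptin-GFP. The Sdha groups overlapped (-0.02, SE 0.04, 95% interval -0.12 to 0.08, adjusted p = 0.844). Sdhb, the iron-sulphur subunit, measured 217, 220.4 and 222 TPM in AAV-GFP and 202, 191 and 205 TPM in AAV-Leptin-GFP, without overlap (-0.15, SE 0.04, adjusted p = 0.118). The difference between these 2 fold changes was not tested. The membrane anchors Sdhc and Sdhd were at -0.23 (adjusted p = 0.153) and -0.14 (adjusted p = 0.284).

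Complex III, the cytochrome bc1 complex, summed to 3367, 3458 and 3478 TPM in AAV-GFP libraries 1, 2 and 3 and to 3125, 3008 and 3201 TPM in AAV-Leptin-GFP libraries. The mean difference was -9.40%, without overlap (3434 ± 59.5 against 3112 ± 97.3 TPM). Of its 9 genes, 7 were lower at an unadjusted p under 0.05, against 8.19% of all tested genes. Cyc1, cytochrome c1, measured 261, 251 and 271 TPM in AAV-GFP and 239, 248 and 243 TPM in AAV-Leptin-GFP. The groups did not overlap, though AAV-GFP library 2 lay close to AAV-Leptin-GFP library 2 (-0.10, SE 0.04, adjusted p = 0.246). Uqcrfs1, the Rieske iron-sulphur protein, measured 240.0, 252 and 243 TPM in AAV-GFP and 219, 206 and 227 TPM in AAV-Leptin-GFP, again without overlap (-0.17, SE 0.05, adjusted p = 0.113).

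Among the accessory subunits of complex III, Uqcr11, whose promoter is shown above, had the smallest p of the complex. It measured 457, 489 and 457 TPM in AAV-GFP and 374, 424 and 408 TPM in AAV-Leptin-GFP, without overlap and with AAV-Leptin-GFP library 1 the lowest (-0.22, SE 0.06, adjusted p = 0.0962). Uqcrh, the hinge protein that binds cytochrome c1, had the highest level, at 621, 640.5 and 625 TPM in AAV-GFP and 573, 528 and 585 TPM in AAV-Leptin-GFP. Its groups did not overlap either (-0.16, SE 0.05, adjusted p = 0.113).

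Complex IV, cytochrome c oxidase, has its catalytic core encoded in mitochondrial DNA, so its nuclear genes are all accessory. Their sum was 10077.5, 10515 and 10602 TPM in AAV-GFP libraries 1, 2 and 3 and 9593, 9054 and 9714 TPM in AAV-Leptin-GFP libraries, a mean difference of -9.08% without overlap (10398 ± 281 against 9454 ± 351 TPM). Ndufa4, named for complex I but a subunit of complex IV, had the highest mean of all 101 genes (1529.8 TPM). It measured 1420.5, 1629.5 and 1796 TPM in AAV-GFP and 1483, 1326 and 1524 TPM in AAV-Leptin-GFP. The groups overlapped, and AAV-GFP library 1 lay below 2 AAV-Leptin-GFP libraries (-0.16, SE 0.09, adjusted p = 0.394). Cox6a1 had the smallest p of complex IV, at 1161, 1113 and 1071 TPM in AAV-GFP and 1009, 991 and 955 TPM in AAV-Leptin-GFP, without overlap (-0.18, SE 0.04, adjusted p = 0.0792). Cox5a, a matrix-side subunit, was at -0.14 (adjusted p = 0.0852).

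Cox4i1, a regulatory subunit that binds ATP, measured 1145, 1158 and 1157 TPM in AAV-GFP and 1049, 1017 and 1099 TPM in AAV-Leptin-GFP, without overlap (-0.13, SE 0.04, adjusted p = 0.122). Cox6b1, which faces the intermembrane space, measured 757, 768 and 787 TPM in AAV-GFP and 702, 704 and 733 TPM in AAV-Leptin-GFP, without overlap (-0.11, SE 0.03, adjusted p = 0.145). Cox8a measured 1017, 991 and 991 TPM in AAV-GFP and 933, 926 and 936 TPM in AAV-Leptin-GFP, without overlap (-0.10, SE 0.03, adjusted p = 0.13). In these 3 genes every AAV-Leptin-GFP library was lower, and none passed the test. Cox7a2 measured 573, 630.2 and 601 TPM in AAV-GFP and 549.6, 489.6 and 562 TPM in AAV-Leptin-GFP, without overlap (-0.17, SE 0.06, adjusted p = 0.19). Cox7b measured 381, 419 and 411 TPM in AAV-GFP and 390.2, 346 and 407 TPM in AAV-Leptin-GFP, with overlap (-0.09, SE 0.07, adjusted p = 0.537).

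The tissue isoforms of complex IV were far below their ubiquitous counterparts, which made up nearly all of each pair. Cox7a1, the muscle counterpart of Cox7a2, was the highest of them at 14.8, 10.6 and 14.7 TPM in AAV-GFP and 9.59, 9.78 and 11.4 TPM in AAV-Leptin-GFP. The groups overlapped because AAV-GFP library 2 was low, and its fold change, the most negative of the 91, did not pass (-0.34, SE 0.14, adjusted p = 0.241). As a share of Cox7a1 and Cox7a2 together it was 2.18% ± 0.465 in AAV-GFP and 1.89% ± 0.151 in AAV-Leptin-GFP (SD, n = 3 each), with overlap. The 4 skeletal muscle markers Acta1, Ckm, Myh4 and Tnnt3 summed to 3.03 to 4.15 TPM in AAV-GFP and 2.98 to 5.96 TPM in AAV-Leptin-GFP. Their part in the Cox7a1 level was not tested.

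Cox6b2, the testis counterpart of Cox6b1, measured 5.81, 4.03 and 1.45 TPM in AAV-GFP and 5.29, 1.58 and 4.18 TPM in AAV-Leptin-GFP, with full overlap (0.002, SE 0.45, adjusted p = 0.999). Cox4i2, the lung counterpart of Cox4i1, measured 1.74, 2.69 and 0.757 TPM in AAV-GFP and 1.33, 1.08 and 0.887 TPM in AAV-Leptin-GFP, with overlap (-0.32, SE 0.28, adjusted p = 0.583). Both varied severalfold within the AAV-GFP group. Cox6a2, the muscle counterpart of Cox6a1, was under the filter at 0.671, 0.288 and 0.152 TPM in AAV-GFP and 0.268, 0.142 and 0 TPM in AAV-Leptin-GFP. Cox7b2 was listed at 2.01, 0.305 and 0 TPM in AAV-GFP and 0.295, 0.615 and 0.355 TPM in AAV-Leptin-GFP. Ndufa4l2, a paralogue of Ndufa4 known to be induced by low oxygen, was at 0.225, 0.572 and 1.04 TPM in AAV-GFP and 0.459, 0.479 and 0.813 TPM in AAV-Leptin-GFP. Cox8b, the muscle counterpart of Cox8a, was listed at 0 in all 6 libraries.

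Complex V, the ATP synthase, summed to 10525, 10934 and 11042.5 TPM in AAV-GFP libraries 1, 2 and 3 and to 10037, 9454 and 10215 TPM in AAV-Leptin-GFP libraries. The mean difference was -8.60%, without overlap (10834 ± 273 against 9902 ± 398 TPM). Atp5mpl (ENSMUSG00000021290, GRCm38 chr12:111961375-111966977, minus strand), a small protein bound to the membrane sector of the enzyme, was the called gene. It measured 986, 1007 and 986 TPM in AAV-GFP libraries 1, 2 and 3 and 877, 841 and 876 TPM in AAV-Leptin-GFP libraries 1, 2 and 3. It fell in 3 of 3 AAV-Leptin-GFP libraries against every AAV-GFP library, from 993 ± 11.9 to 865 ± 20.6 TPM (-0.20, SE 0.03, limma adjusted p = 0.0393). The call was lost in 13 of the 16 alternatives, including each of the 6 that leave out a library, with adjusted p from 0.0511 to 0.165, while its value stayed between -0.22 and -0.10. Its leading transcript is 366 nt long and holds 99.5% of its TPM.

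The other accessory subunits of complex V lay between -0.29 and -0.07. Atp5md, a small subunit that joins ATP synthase into dimers, measured 840.0, 889.6 and 897 TPM in AAV-GFP and 758, 648 and 751 TPM in AAV-Leptin-GFP, without overlap (-0.29, SE 0.07, adjusted p = 0.0771). The core subunits lay between -0.14 and -0.06. Atp5b, the catalytic β subunit and the highest of complex V, measured 1412, 1458 and 1450.4 TPM in AAV-GFP and 1379, 1334 and 1445 TPM in AAV-Leptin-GFP. The groups overlapped (-0.06, SE 0.04, adjusted p = 0.478), and under quantile normalization the value was 0.024.

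The c subunits, which form the rotor ring, come from 3 genes that encode the same mature peptide. Atp5g3 measured 1162, 1186 and 1196 TPM in AAV-GFP and 1114, 1032 and 1078 TPM in AAV-Leptin-GFP, without overlap (-0.14, SE 0.04, adjusted p = 0.112). Atp5g1 measured 658, 641 and 638 TPM in AAV-GFP and 589.7, 593 and 627 TPM in AAV-Leptin-GFP, without overlap (-0.10, SE 0.04, adjusted p = 0.215), and was at 0.0024 under quantile normalization. Atp5g2 measured 15.4, 19.9 and 29.5 TPM in AAV-GFP and 15.6, 19.8 and 25.5 TPM in AAV-Leptin-GFP, with full overlap (-0.07, SE 0.25, adjusted p = 0.919). Shares of the 3 genes overlapped between groups. Atp5g3 made 63.9% ± 0.516 of the c-subunit TPM in AAV-GFP and 63.3% ± 1.341 in AAV-Leptin-GFP, and Atp5g1 34.9% ± 0.828 and 35.5% ± 1.08 (SD, n = 3 each). Of the 31-letter words in the Atp5g2 transcript, 87.7% also occur elsewhere, chiefly in Gm10175, a transcribed processed pseudogene on chromosome 7 (237, 217 and 220.2 TPM in AAV-GFP, 207, 195 and 210.3 TPM in AAV-Leptin-GFP). How reads were divided between the 2 is uncertain.

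**Figure D4:**
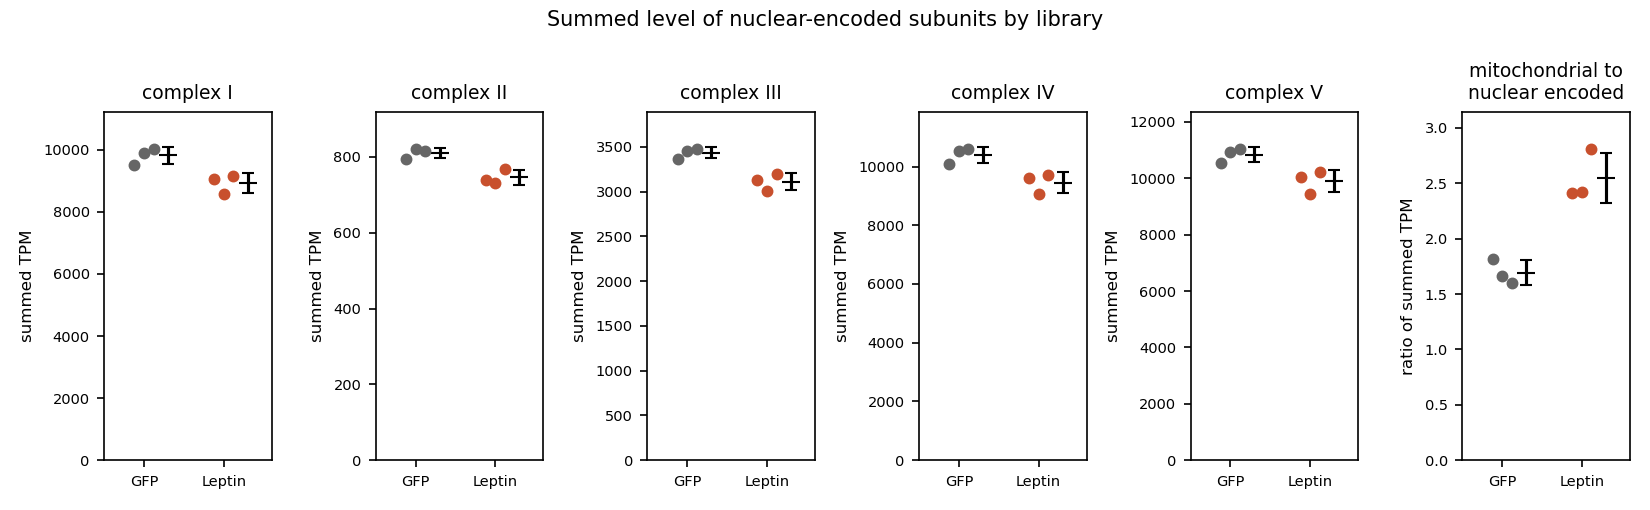
Summed TPM of the nuclear-encoded subunits of each complex, and the ratio of mitochondrially to nuclear encoded TPM over complexes I, III, IV and V, with 1 point per library, mean ± SD beside the points and axes from 0. In every panel the 3 AAV-Leptin-GFP points (red) do not overlap the 3 AAV-GFP points (grey), with mean differences of -9.40% to -7.94% in the complexes and 50.6% in the ratio.

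Core and accessory subunits had different medians, a difference that was not tested. Over all complexes the 19 core genes had a median of -0.08, with 7 lower at an unadjusted p under 0.05, and the 60 tested accessory and anchor genes had a median of -0.15, with 37 lower, against 8.19% of all tested genes. Within complex I, the mean log2 level of accessory genes minus that of core genes was 0.264, 0.251 and 0.294 in AAV-GFP libraries 1, 2 and 3 and 0.225, 0.195 and 0.211 in AAV-Leptin-GFP libraries, without overlap. In complex V the same difference was -0.502, -0.505 and -0.584 in AAV-GFP and -0.527, -0.631 and -0.603 in AAV-Leptin-GFP, with overlap. The median leading transcript was 1142 nt for core genes and 581 nt for accessory genes, and the part of this length difference was not tested.

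**Figure D5:**
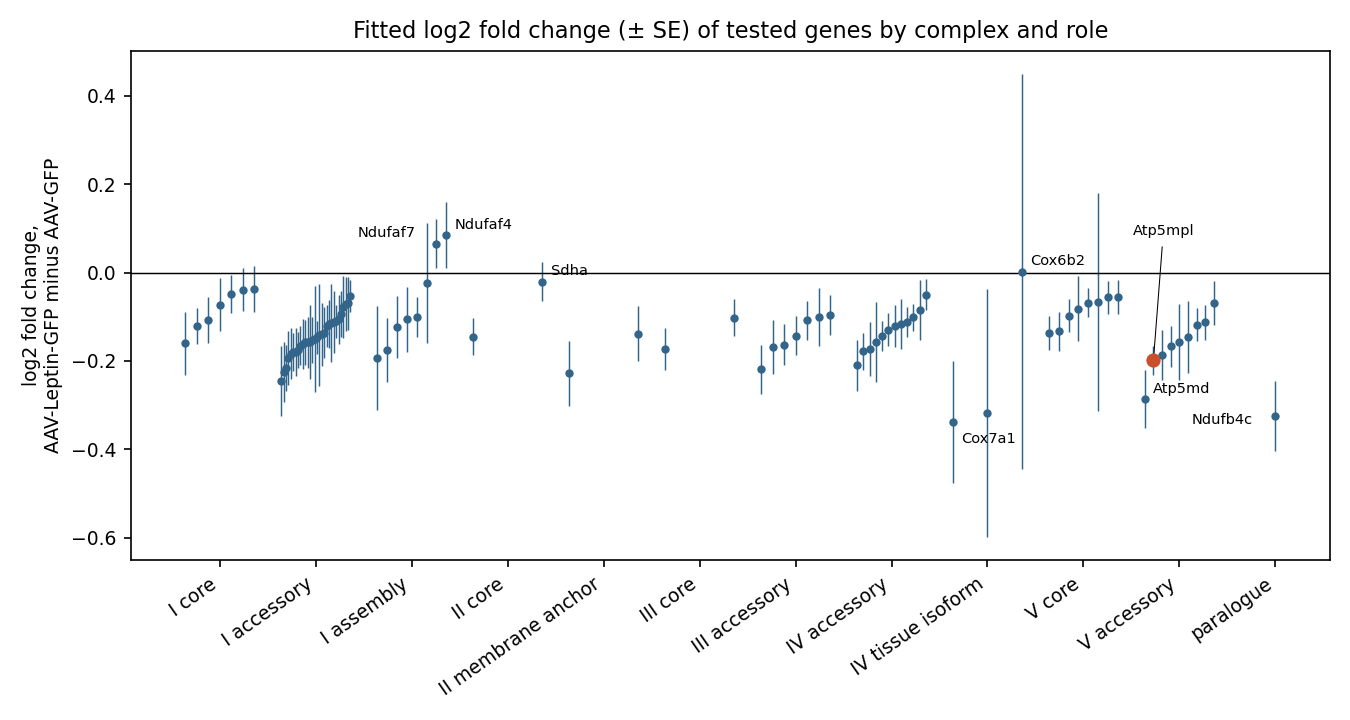
Fitted log2 fold change with its SE for each of the 91 tested genes, by complex and role and sorted within each class, with the 1 gene called at an adjusted p under 0.05 in red. Values crowd between 0 and -0.25, with Ndufaf4, Ndufaf7 and Cox6b2 above 0 and Atp5mpl the called gene.

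Ndufb4c, a name the rule caught, is annotated in GENCODE M21 as a processed pseudogene of Ndufb4, a complex I accessory subunit. It is a 1-exon gene on the minus strand of GRCm38 chr15:73809507-73809896, and Ndufb4 lies at chr16:37647170-37654453, minus strand. Its 390 bases are identical to the whole coding sequence of Ndufb4 (390 of 390). The start of that shared stretch, coding bases 1 to 120 with the start codon in capitals, is shown because reads from it cannot be assigned to either gene by sequence.
Ndufb4 and Ndufb4c: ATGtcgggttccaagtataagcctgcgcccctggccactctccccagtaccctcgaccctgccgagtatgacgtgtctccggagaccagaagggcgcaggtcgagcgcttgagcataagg
Ndufb4c was assigned 382, 415 and 429 TPM in AAV-GFP and 364, 301 and 316 TPM in AAV-Leptin-GFP, without overlap (-0.32, SE 0.08, adjusted p = 0.0881), the most negative value after Cox7a1. Ndufb4 itself was assigned 61.8, 61.7 and 54.4 TPM in AAV-GFP and 59.7, 54.7 and 54.0 TPM in AAV-Leptin-GFP, with overlap (-0.08, SE 0.07, adjusted p = 0.594). Since the split is uncertain, the sum of both is given as well. TPM is corrected for transcript length, which is 390 nt for Ndufb4c and 971 nt for the leading Ndufb4 transcript. The sum therefore depends on the split too. The sum was 444, 476 and 484 TPM in AAV-GFP and 424, 355 and 369.8 TPM in AAV-Leptin-GFP. Its difference was -18.2% without overlap (468 ± 21.3 against 383 ± 36.1 TPM). Of the 91 tested genes, 57 shared under 10% of their 31-letter words with other genes and 9 shared at least 50%, Ndufb4c and Atp5g2 among them. Atp5mpl was not among the 9.

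Transcript classes within these genes were compared because the gene values sum all transcripts. Protein-coding transcripts made 92.7% ± 0.220 of their TPM in AAV-GFP and 92.4% ± 0.171 in AAV-Leptin-GFP (SD, n = 3 each). Transcripts annotated with a retained intron took 1.24%, 1.19% and 1.51% in AAV-GFP libraries 1, 2 and 3 and 1.57%, 1.71% and 1.62% in AAV-Leptin-GFP libraries, without overlap. This is a share of a total that was itself lower with leptin. The summed TPM of these transcripts overlapped, at 433, 432 and 554 TPM in AAV-GFP and 521, 538 and 548 TPM in AAV-Leptin-GFP. In 16 of the 35 genes with such transcripts at a mean of at least 1 TPM (45.7%), all AAV-Leptin-GFP libraries lay above all AAV-GFP libraries, against 56.9% of the 3274 genes of that kind in the table, a share below that in the table. Retained-intron transcripts of Uqcrh were at 0.592, 0.124 and 0.134 TPM in AAV-GFP and 8.10, 2.07 and 4.20 TPM in AAV-Leptin-GFP, and those of Atp5b at 5.19, 0.609 and 2.21 TPM and 14.4, 10.5 and 8.70 TPM. Ndufc1 was the 1 gene in which they lay lower without overlap, at 16.7, 19.6 and 24.3 TPM in AAV-GFP and 8.88, 0 and 14.8 TPM in AAV-Leptin-GFP. These 3 genes were chosen after their values were seen.

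Genes that serve the chain without matching the name rule were grouped in 5 lists, and none of them was called in either direction. Of 47 tested assembly factors outside the rule, 32 were below 0 (median -0.07). Uqcc2, which helps make complex III, had the smallest p, at 240.2, 244.9 and 245.5 TPM in AAV-GFP and 215, 220.4 and 207 TPM in AAV-Leptin-GFP, without overlap (-0.18, SE 0.04, adjusted p = 0.068). Of 20 electron carriers and ubiquinone synthesis genes, 13 were below 0 (median -0.04). Pdss1, which makes the ubiquinone side chain, had the smallest p and lay above 0, at 6.44, 5.15 and 5.75 TPM in AAV-GFP and 8.31, 9.65 and 7.63 TPM in AAV-Leptin-GFP, without overlap (0.49, SE 0.12, adjusted p = 0.0889). Of 9 carriers of ATP, phosphate and ions, 6 were below 0 (median -0.07), led by Slc25a5, an ADP/ATP carrier, at 474, 483 and 477 TPM in AAV-GFP and 432, 428 and 438 TPM in AAV-Leptin-GFP, without overlap (-0.14, SE 0.03, adjusted p = 0.0752). Of 18 pyruvate dehydrogenase and citric acid cycle genes, 15 were below 0 (median -0.04), led by Pdhx, the binding protein of pyruvate dehydrogenase, at 32.2, 35.1 and 33.0 TPM in AAV-GFP and 26.1, 27.5 and 28.2 TPM in AAV-Leptin-GFP, without overlap (-0.28, SE 0.06, adjusted p = 0.071). Of 16 tested regulators of the chain, 5 were below 0 (median 0.10) and none had an unadjusted p under 0.05. Pprc1, a coactivator, had the smallest p of the regulators, at 8.86, 7.30 and 8.26 TPM in AAV-GFP and 9.15, 10.9 and 9.06 TPM in AAV-Leptin-GFP, without overlap (0.23, SE 0.11, adjusted p = 0.302).

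Subunits encoded in mitochondrial DNA lay the other way, with 7 of 13 called higher (mt-Nd1, mt-Nd2, mt-Nd4, mt-Nd4l, mt-Cytb, mt-Co1 and mt-Co2, at 0.37 to 0.57), where 1.54% of all tested genes were, and a median of 0.49. The 7 calls fell to 0 without AAV-GFP library 2 or 3, without AAV-Leptin-GFP library 1 or 2, without limma's trend and with no filter, and to 4 without AAV-Leptin-GFP library 3 and under quantile normalization. The median stayed between 0.36 and 0.53 in these alternatives. Their summed TPM over that of the nuclear-encoded subunits of complexes I, III, IV and V was 1.81, 1.66 and 1.598 in AAV-GFP libraries 1, 2 and 3 and 2.41, 2.42 and 2.81 in AAV-Leptin-GFP libraries, without overlap (1.69 ± 0.111 against 2.55 ± 0.227, exact permutation p = 0.1, the smallest possible with 3 against 3). Since TPM sums to the same total in each library, more of 1 class leaves less for the rest. With the mitochondrially encoded genes removed and TPM rescaled, 86 of the 91 nuclear-encoded genes were still below 0, with a median of -0.10 (0.03 for all tested genes), and the complex I sum differed by -6.83%. The sums of complexes II (-5.71%) and V (-6.38%) then overlapped between groups (exact permutation p = 0.2).

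The labels and the makeup of the libraries were checked. The leptin gene Lep had 0.751, 0.547 and 3.56 TPM in libraries 1, 2 and 3 of the AAV-Leptin-GFP group, and 0 in each library of the other group. All 12 sensory neuron markers were present in every library and summed to 23742 to 25163 TPM in AAV-GFP and 23349.7 to 24031 TPM in AAV-Leptin-GFP. These sums overlapped, but single neuron markers did not all do so. Tubb3 (-0.10), Uchl1 (-0.09) and Prph (-0.11) were lower with leptin without overlap, and Isl1 (0.14) was higher without overlap. The other neuron markers overlapped. Summed satellite glia markers (all 6 present) were 8097 to 9239 TPM against 7248 to 7967 TPM, and Schwann cell markers (all 5 present) 943 to 974 TPM against 820.1 to 901 TPM, both lower with leptin without overlap. Erythroid markers reached 1724 TPM in AAV-Leptin-GFP library 3, against 170.1 to 374 TPM in the other 5 libraries. Summed macrophage, endothelial and fibroblast markers overlapped between groups. The macrophage marker Cd14 was higher with leptin without overlap (0.76), at 4.34, 3.87 and 2.07 TPM in AAV-GFP and 8.15, 4.77 and 6.40 TPM in AAV-Leptin-GFP. The other single markers of these cell types overlapped. No marker gene was called, and the part of glial RNA in the lower respiratory chain levels was not tested. Without AAV-Leptin-GFP library 3, the median of the 91 genes was -0.15.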

How the data were processed

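RNA of 6 libraries, 3 per group, was analysed from a table of TPM per Ensembl transcript that the authors deposited. Its columns each sum to 1000000, so sequencing depth cannot be recovered, and no interval for counting error is given. Transcripts above 0 numbered 60572, 55476 and 55954 in AAV-GFP and 64423, 64087 and 61474 in AAV-Leptin-GFP, without overlap. Genes at 1 TPM or more numbered 14851, 14803 and 14717 in AAV-GFP and 15228, 15151 and 15285 in AAV-Leptin-GFP, also without overlap. The part of this difference in the lower respiratory chain levels was not tested. Per the submitters' processing notes the tools were Salmon 1.6.0, DESeq2 1.34.0, Trim Galore 0.6.6 and FastQC 0.11.9 with the GRCm38 (mm10) build, and neither their roles nor an annotation release is stated there. TPM was summed by gene over 140789 transcripts into 54309 genes. Genes averaging 1 TPM or more entered a limma fit (version 3.58.1, R 4.3.3) of log2(TPM + 1) (trend, two-sided, Benjamini-Hochberg over all 15108 tested genes). The procedure was also run on simulated data with independent noise in each gene, which does not bear on shifts shared by many genes. Sums and ratios were compared with an exact two-sided permutation test over libraries (scipy 1.17.1).

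The members and lists were chosen with earlier results of these data known. Values by library are given for called genes, the smallest p and the highest mean in each complex, the core of complexes II and III, the isoform pairs and c-subunit genes, the 3 most positive and the 3 most negative fold changes, and, in each other list, called genes or else the smallest p. Ndufb4, Gm10175, Atp5md and the genes of the retained-intron comparison fall outside that rule and were chosen after their values were seen. The values of 1 tested gene are not reported here. Transcript classes, gene positions and the Ndufb4 sequence came from GENCODE M21, and promoters from RefSeq (GRCm38.p6). Alternatives changed the pseudocount, filter, trend, scaling, transcripts counted, replicate block and libraries included.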

Additional observations from a re-analysis of the deposited data

How the results depend on the processing

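The 1 call among the 91 genes (Atp5mpl, lower) was 0 with no filter, 0 without the trend, 0 with quantile normalization, 0 with median-ratio scaling, 0 with the mitochondrially encoded genes removed, 0 with protein-coding transcripts only, and between 0 and 0 when each library was left out in turn. It remained 1 with a pseudocount of 0.1 or 0.5 and with a filter of 5 TPM. With the replicate number as a replicate block the count was 0 and the number lower at an unadjusted p under 0.05 was 48 against 47. The labels give no pairing beyond that number, and deviations of same-numbered libraries correlated at 0.03, -0.07 and -0.02. These correlations over all tested genes cannot exclude a batch that affects some of the genes. The block also gave 0 calls among the 13 mitochondrially encoded subunits and 74 higher calls over all genes. Higher calls over all genes numbered 4 with no filter, 35 without the trend and 53 with protein-coding transcripts only. The median log2 fold change was -0.066 under quantile normalization, where 12 of the 91 genes lay at or above 0 against 3 in the values reported above. Among the genes given by library, directions turned as follows. Under quantile normalization the log2 fold change was 0.024 for Atp5b, 0.0024 for Atp5g1, 0.031 for Sdha and -0.12 for Cox6b2. Cox6b2 was at -0.010 with median-ratio scaling and -0.18 with protein-coding transcripts only, where Ndufaf7 was at -0.064. Sdha was at 0.013 with the mitochondrially encoded genes removed. With 1 library left out, Atp5g2 ranged from -0.27 to 0.17, Cox6b2 from -0.42 to 0.38 and Sdha from -0.045 to 0.0087. The cause was not tested. Counting Ndufb4c in complex I, an alternative chosen after seeing the data, moved the difference of the complex I sum from -9.04% to -9.47%. TPM keeps no depth, so the reads behind low genes such as Cox4i2 are unknown.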
